A study of Mus musculus with 24 samples.

Results

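The radial glia of the normal embryonic mouse cortex were compared with its neurons, the opposite ends of the excitatory lineage at embryonic day E15.5. The comparison set 4 WT PAX6+ libraries, labelled as radial glia, against 4 WT PAX6-TBR2- libraries, described as neurons, which are 8 of the 24 RNA-seq libraries of the study. Libraries were assigned to the groups by their sample titles. The members were chosen with earlier results of these data known. WT stands here for Prdm16 flox/flox embryos without a recombinase, so both groups carry floxed Prdm16 alleles. The study also holds 4 WT TBR2+ libraries, labelled as intermediate progenitors, and PAX6+, TBR2+ and PAX6-TBR2- libraries of KO embryos, which add Emx1-Ires-Cre to the same floxed alleles, all at E15.5. Emx1-Ires-Cre drives recombination in cells that descend from the dorsal telencephalon. The WT TBR2+ and the KO libraries are used below only to place some genes.

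Radial glia are the stem cells of the developing cortex. Their cell bodies line the ventricle, where they divide, and a long fibre reaches the outer surface. They are kept in the progenitor state by Notch signalling among others, and give rise to excitatory neurons either directly or through intermediate progenitors that express TBR2, the product of Eomes. The newborn neurons leave the cell cycle, migrate outwards along the radial fibres, grow an axon and begin to build synapses.

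WT PAX6+ libraries held 7.75 to 12.6 M counts and WT PAX6-TBR2- libraries 4.95 to 30.0 M, the highest being replicate 4. Spearman correlations over the genes tested were 0.984 to 0.989 between PAX6+ libraries, 0.975 to 0.988 between PAX6-TBR2- libraries and 0.734 to 0.793 between the groups. Mitochondrially encoded RNA, nearly all of it ribosomal, took 14.4% to 20.2% of counts in WT PAX6+ and 20.4% to 26.1% in WT PAX6-TBR2-. Replicates are called biological in the series text, but embryos and litters are not named, so p-values measure the spread between these libraries. All libraries of a population share a name prefix, so handling and sequencing cannot be told apart from the population. In sorted bulk samples, fewer cells of a type and less RNA per cell cannot be told apart.

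Of 14308 genes tested, 9530 (66.6%) differed at an adjusted p under 0.05 in edgeR's quasi-likelihood test with Benjamini-Hochberg adjustment, and such genes are said to be called. In PAX6+ cells 4826 genes (33.7%) were higher and 4704 (32.9%) lower. Relative to library totals, with no correction for RNA composition, the calls were 7431 higher and 3094 lower, the share called higher was 70.6% in place of 50.6%, and the median log2 fold change of all genes was 0.46 in place of 0.01. Changes below are relative to the TMM-scaled library, in which that median lies near 0. A log2 fold change of 2 or more in size, called strong below, was reached by 1292 genes higher (9.03%) and 1453 lower (10.2%), and the groups of 4 libraries did not overlap for 8785 genes (61.4%). With most genes called, a gene list is described here by how many members were called each way, how many were strong, and its median.

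The labels were checked first. Pax6, which encodes the sorting antigen of the radial glia, had 474, 498, 482 and 428 CPM in WT PAX6+ libraries, against 20.4, 47, 20.9 and 42.8 CPM in WT PAX6-TBR2- libraries. All PAX6+ libraries lay above all PAX6-TBR2- libraries by a log2 fold change of 3.82 ± 0.23 (SE). Sox2, a stem cell transcription factor of neural progenitors, had 114, 126, 118 and 92.6 CPM in PAX6+, against 14.4, 17.2, 23.6 and 34.8 CPM in PAX6-TBR2-. Vim, which encodes the intermediate filament vimentin of radial fibres, had 804, 780.2, 794 and 844 CPM in PAX6+, against 62.9, 106, 59.2 and 100.3 CPM in PAX6-TBR2-. Both groups were thus apart for the radial glial markers, and the neuron markers ran the other way. Tubb3, the neuronal beta tubulin, had 11.1, 8.11, 11.6 and 6.05 CPM in PAX6+, against 621, 488, 578 and 482 CPM in PAX6-TBR2-. Dcx, the microtubule protein doublecortin of young migrating neurons, had 92.1, 37.9, 57 and 60.2 CPM in PAX6+, against 2744, 2790, 2349 and 2674 CPM in PAX6-TBR2-. Each labelled cell type thus carried its defining markers. Within PAX6-TBR2-, replicates 2 and 4 held more Pax6 and Vim than replicates 1 and 3, and more Mki67 and Eomes (below). Sox2 did not divide in this way. Spearman correlations with PAX6+ libraries were 0.7731 to 0.7927 for replicates 2 and 4 and 0.7338 to 0.7575 for replicates 1 and 3. The cause was not tested. CPM values are counts relative to the TMM-scaled library total.

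**Figure D1:**
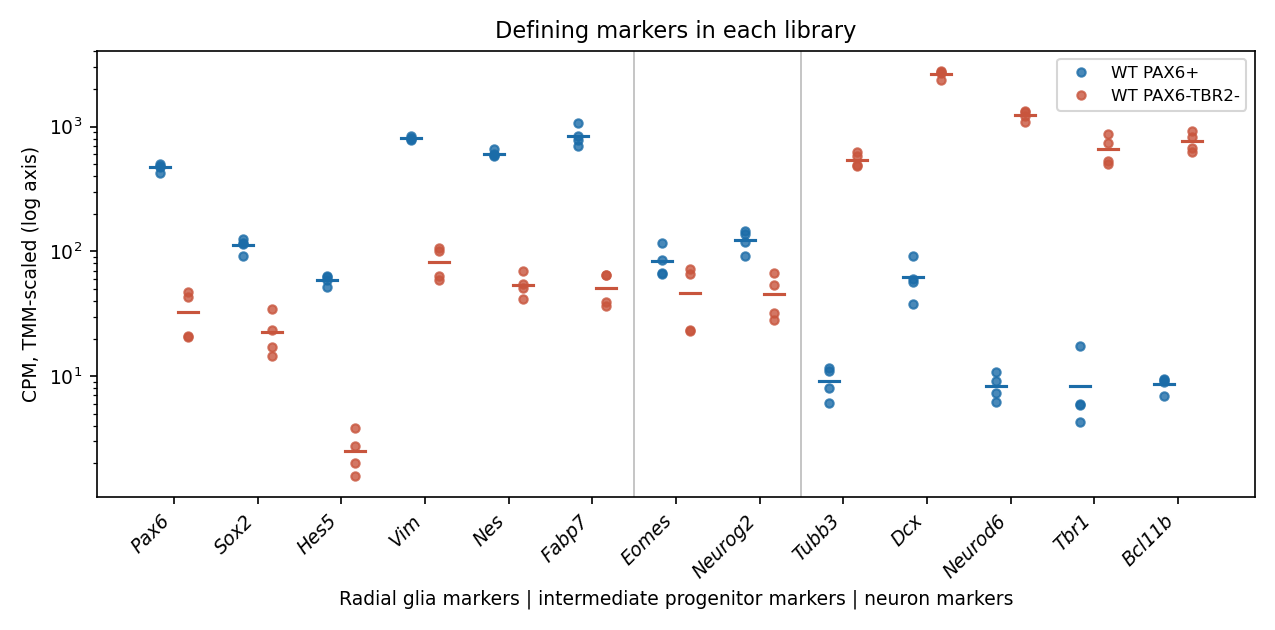
Levels of 13 defining markers in each of the 8 libraries, in TMM-scaled CPM on a log axis, with 4 points and a bar at the mean for WT PAX6+ (left, blue) and WT PAX6-TBR2- (right, red). The groups do not overlap for any of the 6 radial glia markers or the 5 neuron markers, whereas those of Eomes, among the intermediate progenitor markers, overlap.

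Transcription factors of radial glia were higher in PAX6+ cells for 18 of 20 members tested, 17 of them strongly, with a median log2 fold change of 3.17 against 0.01 over all genes. Hmga2, a chromatin protein of young neural stem cells, had 54.8, 54.1, 42 and 42.3 CPM in WT PAX6+ libraries, against 1.57, 3.11, 1.72 and 1.92 CPM in WT PAX6-TBR2- libraries, with a log2 fold change of 4.56 ± 0.20 (SE) and an adjusted p of 2.47e-11. Gli3, the main transcriptional repressor of hedgehog signalling in the dorsal cortex, had 824, 731, 883 and 719.8 CPM in PAX6+, against 27.2, 52.1, 29.9 and 64.2 CPM in PAX6-TBR2-, with a log2 fold change of 4.15 ± 0.23 (SE). The levels of Sox9, a factor that maintains neural stem cells, were 405, 394, 455 and 339 CPM in PAX6+, against 18.4, 41.3, 21 and 37.6 CPM in PAX6-TBR2-, and the log2 fold change was 3.73. The remaining 2 members were not called. One of them, Emx1, a dorsal cortical homeobox gene and the locus that carries the Cre in the KO, had 22.8, 25.3, 20.8 and 26.3 CPM in PAX6+, against 15.3, 18.6, 19.8 and 25.3 CPM in PAX6-TBR2-. The groups overlapped for Emx1.

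Structural and metabolic genes of radial glia were higher in PAX6+ cells for 15 of 18 members tested, all strongly, and lower for 1. Nes, which encodes the intermediate filament nestin, had 583, 591, 604 and 656 CPM in WT PAX6+ libraries, against 41.8, 69.7, 50.8 and 54.8 CPM in WT PAX6-TBR2- libraries, with a log2 fold change of 3.48 ± 0.14 (SE) and an adjusted p of 9.70e-12. Fabp7, the brain lipid-binding protein of radial glia, had 776, 698, 837 and 1075 CPM in PAX6+, against 39.1, 64.7, 36.3 and 65 CPM in PAX6-TBR2-, and Slc1a3, the glutamate transporter GLAST, 333, 305, 379.8 and 372 CPM in PAX6+, against 44.3, 47, 37.1 and 45.3 CPM in PAX6-TBR2-. These came to log2 fold changes of 4.03 for Fabp7 and 3.00 for Slc1a3. A second glutamate transporter, Slc1a2, or GLT-1, was the member lower in PAX6+ cells, at 24.9, 11.2, 26.9 and 21.8 CPM in PAX6+, against 61.6, 51.6, 37.6 and 34 CPM in PAX6-TBR2- and a log2 fold change of -1.10 ± 0.24 (SE). Ptprz1, a receptor phosphatase of radial glia, was not called, at 1009, 835, 1207 and 1001 CPM in PAX6+, against 1192, 963, 888 and 701 CPM in PAX6-TBR2-, and neither was the glutamine synthetase gene Glul, at 59.4, 58.2, 58 and 51.6 CPM in PAX6+, against 51, 47.2, 45.8 and 56.8 CPM in PAX6-TBR2-. Those groups overlapped.

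Genes of the apical junction and cell polarity divided, with 11 of 18 members higher in PAX6+ cells, 3 lower and 4 not called. Of those higher, 7 were strong, and the median of the list was 0.79. Aspm, a spindle pole protein whose loss causes small brains, had 475, 585, 537 and 460.2 CPM in WT PAX6+ libraries, against 11.2, 16.3, 15.7 and 18 CPM in WT PAX6-TBR2- libraries, with a log2 fold change of 5.03 ± 0.15 (SE). Crb2, a polarity determinant of the apical membrane, had 42.7, 47.8, 46.7 and 44.9 CPM in PAX6+, against 4.27, 3.84, 1.72 and 3.05 CPM in PAX6-TBR2-, and Tjp1, the tight junction scaffold ZO-1, had 274, 292, 277 and 288 CPM in PAX6+, against 81.8, 96.4, 83.6 and 89.4 CPM in PAX6-TBR2-. Log2 fold changes were 3.87 for Crb2 and 1.69 for Tjp1. The atypical cadherin pair that bind each other across cells ran the other way, with Dchs1 at 196, 182, 198 and 146 CPM in PAX6+, against 483, 420.3, 622 and 541 CPM in PAX6-TBR2- and Fat4 at 654, 646, 692 and 619 CPM in PAX6+, against 1795, 1383, 1223 and 897 CPM in PAX6-TBR2-. Their log2 fold changes were -1.52 for Dchs1 and -1.02 for Fat4. Afdn, the junction linker afadin, was lower by less, with a log2 fold change of -0.46 ± 0.09 (SE), and with library totals alone its log2 fold change of -0.02 was no longer called. N-cadherin, encoded by Cdh2 and present in the junctions of both cell types, was not called at 528, 514, 477 and 508 CPM in PAX6+, against 654, 606, 538 and 512 CPM in PAX6-TBR2-.

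Integrins and matrix genes were higher in PAX6+ cells for 12 of 17 members tested and lower for 3. Itgav, an integrin alpha subunit, had 81, 84.8, 87.4 and 92 CPM in PAX6+, against 7.87, 14.4, 6.87 and 9.18 CPM in PAX6-TBR2-, and its partner subunit Itgb8 had 103, 130.4, 110.3 and 132 CPM in PAX6+, against 10.1, 13.9, 16.2 and 20.2 CPM in PAX6-TBR2-. Lama1, a laminin alpha chain of the basement membrane, had 62.5, 74.6, 66.2 and 62.5 CPM in PAX6+, against 15.3, 17, 16.6 and 18.6 CPM in PAX6-TBR2-, with a log2 fold change of 1.96 ± 0.12 (SE), while the beta chain gene Lamb1 had 4.17, 5.63, 6.31 and 6.05 CPM in PAX6+, against 44.5, 45.2, 61.1 and 53.9 CPM in PAX6-TBR2- and a log2 fold change of -3.20. The laminin chains thus moved in opposite directions. The collagen IV genes Col4a1 and Col4a2 were also lower in PAX6+ cells, with log2 fold changes of -1.35 and -0.77. These genes lie head to head and overlap on opposite strands, so their reads may be mixed. Col4a2 lost its call without PAX6+ replicate 2 (-0.64, adjusted p = 0.0601), PAX6+ replicate 4 (-0.66, adjusted p = 0.0526) or PAX6-TBR2- replicate 3 (-0.44, adjusted p = 0.0888), and its direction turned to 0.052 when the trend with gene length and GC content was removed.

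The Notch pathway was measured at 18 genes, of which 15 were higher in PAX6+ cells, 8 of them strongly, and 3 lower. Notch receptors are cleaved on binding a ligand of a neighbouring cell, and the freed part turns on Hes genes with the DNA-binding partner RBPJ. The receptor gene Notch2 had 832, 731, 972 and 754 CPM in WT PAX6+ libraries, against 40.2, 60, 48.8 and 69.2 CPM in WT PAX6-TBR2- libraries, with a log2 fold change of 3.9 ± 0.16 (SE) and an adjusted p of 1.56e-11. The target Hes5, a repressor of neuronal differentiation, had 51.4, 58.9, 63 and 62.6 CPM in PAX6+, against 1.57, 2.74, 2.0 and 3.81 CPM in PAX6-TBR2-, and its relative Hes1 had 51.3, 64.4, 48.3 and 59.2 CPM in PAX6+, against 2.47, 5.85, 3.72 and 4.69 CPM in PAX6-TBR2-. Nrarp, a target that feeds back on the pathway, had 58.4, 61.4, 67.6 and 54.9 CPM in PAX6+, against 3.6, 7.32, 5.29 and 7.62 CPM in PAX6-TBR2-. Every PAX6+ library lay above every PAX6-TBR2- library for these receptor and target genes, with log2 fold changes of 4.35 for Hes5, 3.69 for Hes1 and 3.26 for Nrarp. The members lower in PAX6+ cells were the ligand Jag2, at 2.75, 2.03, 2.75 and 2.09 CPM in PAX6+, against 12.4, 7.68, 23.8 and 20.4 CPM in PAX6-TBR2-, the divergent ligand Dll3, at 1.14, 1.2, 0.94 and 0.44 CPM in PAX6+, against 3.82, 3.11, 1.57 and 3.73 CPM in PAX6-TBR2-, and the Notch inhibitor Numbl, at 37.9, 29.1, 36.6 and 27 CPM in PAX6+, against 86.3, 68.6, 83.7 and 84 CPM in PAX6-TBR2-. Their log2 fold changes were -2.76 for Jag2, -1.69 for Dll3 and -1.30 for Numbl.

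The promoter of Hes5 is shown because this gene is the classical readout of the pathway. The sequence is RefSeq's for GRCm38.p6, from 250 bases before to 50 after the annotated start, chr4:154960673-154960972 on the plus strand, read 5′ to 3′. Capitals mark TTCCCAC, a core of RBPJ binding sites, and its reverse complement. The matches start 226 and 83 bases before the start site.
Hes5: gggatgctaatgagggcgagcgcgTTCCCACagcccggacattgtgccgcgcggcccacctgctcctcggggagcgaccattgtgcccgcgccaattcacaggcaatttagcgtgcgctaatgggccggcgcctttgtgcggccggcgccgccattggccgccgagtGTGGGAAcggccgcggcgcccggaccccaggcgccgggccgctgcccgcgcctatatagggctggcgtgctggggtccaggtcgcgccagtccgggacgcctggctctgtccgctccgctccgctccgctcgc
Of the 27025 genes with a promoter in the RefSeq table, 1958 (7.25%) held TTCCCAC or its reverse complement. A match is a description of these letters and does not show that the factor binds there.

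The Hippo pathway list, in which the coactivators YAP and TAZ drive growth genes, was higher in PAX6+ cells for 11 of 13 members and lower for 1. Yap1, which encodes YAP, had 106, 112, 109 and 107 CPM in WT PAX6+ libraries, against 8.54, 11.7, 6.58 and 9.06 CPM in WT PAX6-TBR2- libraries, with a log2 fold change of 3.60 ± 0.14 (SE). Wwtr1, which encodes TAZ, had 163, 157, 167 and 184 CPM in PAX6+, against 2.92, 10.2, 6.44 and 10.5 CPM in PAX6-TBR2-, and their target Ccn1 had 161, 168, 169.6 and 175 CPM in PAX6+, against 11.7, 17.9, 13.3 and 15.2 CPM in PAX6-TBR2-. Both rose, by 4.37 for Wwtr1 and 3.53 for Ccn1 on the log2 scale. Nf2, which encodes the upstream inhibitor merlin, was the member lower in PAX6+ cells, at 72.8, 69, 83 and 70.7 CPM in PAX6+, against 131, 106, 111 and 123 CPM in PAX6-TBR2- and a log2 fold change of -0.67 ± 0.11 (SE). That difference was smaller, -0.23 with an adjusted p of 0.0876, under library totals alone. The upstream kinase gene Lats1 was not called, at 150.4, 179.9, 188 and 188 CPM in PAX6+, against 138, 154, 161 and 161 CPM in PAX6-TBR2-.

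Receptors and targets of FGF, Wnt, BMP and hedgehog signals were higher in PAX6+ cells for 15 of 18 members, 7 of them strongly. Fgfr3, an FGF receptor of neural progenitors, had 209, 238, 239.7 and 226 CPM in PAX6+, against 21.8, 27.6, 25.6 and 31.4 CPM in PAX6-TBR2-, with a log2 fold change of 3.08 ± 0.12 (SE). Etv5, a transcription factor induced by FGF, had 69.8, 53.9, 94.1 and 57.1 CPM in PAX6+, against 10.1, 8.78, 7.73 and 9.74 CPM in PAX6-TBR2-. Smo, the hedgehog signal transducer, had 75.9, 72.8, 76.8 and 64.8 CPM in PAX6+, against 15.1, 15.9, 19 and 18.9 CPM in PAX6-TBR2-, and the Wnt receptor Fzd8 had 58.1, 56.3, 54.4 and 50.2 CPM in PAX6+, against 4.5, 8.6, 5.72 and 8.7 CPM in PAX6-TBR2-. Log2 fold changes were 2.91 for Etv5, 2.06 for Smo and 2.92 for Fzd8, without overlap of the groups. Spry1, an inhibitor of FGF signalling, was lower in PAX6+ cells, at 3.13, 4.36, 4.63 and 5.28 CPM in PAX6+, against 6.52, 5.67, 7.73 and 11.2 CPM in PAX6-TBR2-, with a log2 fold change of -0.89 that was -0.43 and not called (adjusted p = 0.124) with library totals alone. Lrp6 and Bmpr2, a Wnt coreceptor and a BMP receptor used by many cell types, were not called.

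Cell cycle genes had the highest median of any list. All 22 genes of G2 and mitosis were strongly higher in PAX6+ cells, with a median log2 fold change of 4.71, and their summed level was 6224 to 7207 CPM in WT PAX6+ libraries and 190.2 to 319 CPM in WT PAX6-TBR2- libraries. Mki67, the proliferation antigen, had 2222, 2353, 2435 and 2016 CPM in WT PAX6+ libraries, against 54.2, 109.7, 55.2 and 96.3 CPM in WT PAX6-TBR2- libraries, with a log2 fold change of 4.83 ± 0.22 (SE) and an adjusted p of 2.98e-11. The mitotic cyclin Ccnb1 had 40.9, 55.6, 48.7 and 46.8 CPM in PAX6+, against 0.899, 0.732, 0.715 and 1.28 CPM in PAX6-TBR2-, and the spindle motor Kif11 386, 397, 425 and 412 CPM in PAX6+, against 5.62, 13.3, 7.58 and 12.9 CPM in PAX6-TBR2-. Their log2 fold changes were 5.52 for Ccnb1 and 5.29 for Kif11. All 22 genes kept counts above 0 in every PAX6-TBR2- library. All 20 genes of DNA replication and the G1/S step were higher too, 15 strongly, with a median of 2.78. Tyms, which makes thymidylate, had 125, 116, 116 and 111 CPM in PAX6+, against 13.3, 17.6, 11 and 17.2 CPM in PAX6-TBR2-, and the G1 cyclin Ccnd2 had 679.7, 719, 654 and 736 CPM in PAX6+, against 82.3, 120, 86.3 and 129.5 CPM in PAX6-TBR2-. Those rises were 2.96 for Tyms and 2.73 for Ccnd2 on the log2 scale.

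Promoters of 3 mitotic genes are shown because the G2 and mitosis list moved together. Cdk1 is the mitotic kinase, Ccnb2 one of its cyclins, and Kif11 the motor named above, and the 3 were chosen after their values were seen. Cdk1 had 60.4, 59.3, 65.1 and 72.3 CPM in PAX6+, against 1.8, 1.46, 2.29 and 2.45 CPM in PAX6-TBR2- and Ccnb2 had 63.2, 65.9, 63.9 and 53.3 CPM in PAX6+, against 3.37, 4.21, 2.86 and 6.25 CPM in PAX6-TBR2-. Capitals mark CCAAT, the box bound by NF-Y, and TTTGAA, the cell cycle homology region bound by DREAM and MuvB complexes, each searched on both strands, so that ATTGG and TTCAAA are their reverse complements. Neither motif overlaps the other in these windows. The sequences are RefSeq's for GRCm38.p6, 5′ to 3′ on the gene's strand, from 250 bases before to 50 after the start, at chr10:69352863-69353162 (minus strand) for Cdk1, chr9:70421505-70421804 (minus strand) for Ccnb2 and chr19:37376132-37376431 (plus strand) for Kif11.
Cdk1: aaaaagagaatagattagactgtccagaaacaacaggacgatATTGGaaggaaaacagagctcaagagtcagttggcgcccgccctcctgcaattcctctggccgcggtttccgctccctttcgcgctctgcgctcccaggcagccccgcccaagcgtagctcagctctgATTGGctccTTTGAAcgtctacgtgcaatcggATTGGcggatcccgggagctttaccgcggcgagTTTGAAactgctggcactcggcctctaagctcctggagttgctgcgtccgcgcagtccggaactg
Ccnb2: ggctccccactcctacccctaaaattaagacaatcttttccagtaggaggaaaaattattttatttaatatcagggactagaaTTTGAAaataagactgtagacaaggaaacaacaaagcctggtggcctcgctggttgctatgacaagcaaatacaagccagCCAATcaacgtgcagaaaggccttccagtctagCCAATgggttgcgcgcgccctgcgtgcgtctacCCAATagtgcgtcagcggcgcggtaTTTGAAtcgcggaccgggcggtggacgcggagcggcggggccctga
Kif11: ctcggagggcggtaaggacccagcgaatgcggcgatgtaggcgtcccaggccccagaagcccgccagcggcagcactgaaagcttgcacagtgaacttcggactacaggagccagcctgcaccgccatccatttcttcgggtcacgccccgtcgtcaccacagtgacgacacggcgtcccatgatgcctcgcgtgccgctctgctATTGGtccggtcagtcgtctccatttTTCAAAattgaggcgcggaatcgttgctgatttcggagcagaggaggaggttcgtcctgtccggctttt
The Cdk1 window held CCAAT at 208, 80 and 48 bases and TTTGAA at 71 and 15 bases before the start site. In the Ccnb2 window CCAAT began 87, 54 and 21 bases before the start, and in that of Kif11 the boxes began 45 and 19 bases before it. Of the 22 mitotic genes, 18 had a promoter in the RefSeq table, of which 16 (88.9%) held CCAAT and 13 (72.2%) held TTTGAA. Over the 27025 genes of that table the shares were 41.1% and 20.2%. These matches describe letters, not binding.

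**Figure D2:**
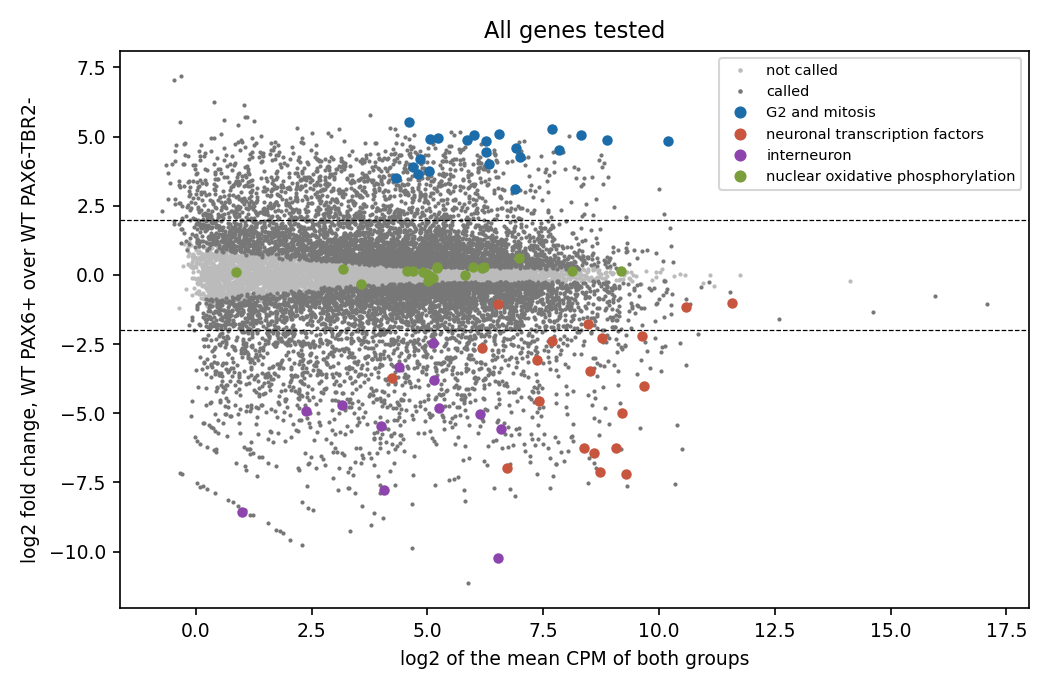
Log2 fold change of WT PAX6+ over WT PAX6-TBR2- against the log2 mean CPM of both groups for the 14308 genes tested, with 4 gene lists in colour and dashed lines at 2 and -2. All 22 genes of G2 and mitosis (blue) lie above the upper line, the 20 neuronal transcription factors (red) and the 12 interneuron genes (purple) lie below 0, and the 20 nuclear genes of oxidative phosphorylation (green) lie near 0.

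Genes of cell cycle exit did not move as a group. Of 12 members, 5 were higher in PAX6+ cells, 1 was lower and 6 were not called, for a median of 0.53. The lower members were 2 without PAX6+ replicate 2 or 3 or PAX6-TBR2- replicate 3 or 4, and 4 with the trend with length and GC removed, and 9 members were higher under library totals alone. Cdkn1c, which encodes the cyclin-dependent kinase inhibitor p57, had 1.8, 3.38, 2.02 and 2.42 CPM in WT PAX6+ libraries, against 35.7, 36.9, 30.1 and 44.7 CPM in WT PAX6-TBR2- libraries, with a log2 fold change of -3.93 ± 0.21 (SE) and an adjusted p of 1.66e-10. Among those higher in PAX6+ cells were the inhibitor gene Cdkn2c, or p18, at 26.6, 20.4, 30.4 and 23.7 CPM in PAX6+, against 1.57, 1.28, 0.429 and 1.88 CPM in PAX6-TBR2-, and the antiproliferative gene Btg2, which marks progenitors about to form neurons, at 73.3, 100.3, 78.2 and 87.3 CPM in PAX6+, against 11, 29.1, 16.3 and 26.5 CPM in PAX6-TBR2-. Their log2 fold changes were 4.13 for Cdkn2c and 1.99 for Btg2. Rbl1, the retinoblastoma relative p107, was higher by 3.03.

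The intermediate progenitor list was divided as well, with 4 of 13 members higher in PAX6+ cells and 8 lower. Eomes had 66.4, 85.7, 117 and 66.9 CPM in WT PAX6+ libraries, against 22.9, 66.4, 23.3 and 71.8 CPM in WT PAX6-TBR2- libraries. PAX6+ replicate 3 was the highest and PAX6-TBR2- replicates 2 and 4 reached the level of PAX6+ replicates 1 and 4, so the groups overlapped. Its log2 fold change was 0.83 ± 0.31 (SE), with an adjusted p of 0.0276. The call was lost without PAX6+ replicate 3 (0.64, adjusted p = 0.0876), PAX6-TBR2- replicate 1 (0.62, adjusted p = 0.0738) or PAX6-TBR2- replicate 3 (0.60, adjusted p = 0.0829), and in DESeq2's Wald test (0.86, adjusted p = 0.111). Without any one of these libraries, and in DESeq2, 2 members of the list were called higher. Neurog2, a proneural factor that starts neuron formation, had 92.4, 138, 146 and 118 CPM in PAX6+, against 28.3, 53.8, 32.2 and 66.6 CPM in PAX6-TBR2-, with a log2 fold change of 1.42 ± 0.22 (SE). Neurod1, which acts after Neurog2, was lower in PAX6+ cells, at 1.61, 1.43, 2.28 and 0.77 CPM in PAX6+, against 31.9, 44.6, 38.2 and 44.9 CPM in PAX6-TBR2- and a log2 fold change of -4.65, and so was Insm1, a factor that promotes basal progenitors, at 57.5, 69.7, 71 and 55.5 CPM in PAX6+, against 127, 152, 173 and 175 CPM in PAX6-TBR2- and -1.31.

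The WT TBR2+ libraries place these genes along the lineage. On a scale set over the 12 WT libraries, Eomes averaged 78.8 ± 22.8, 942 ± 78.6 and 42.8 ± 24.5 CPM in PAX6+, TBR2+ and PAX6-TBR2- libraries in that order (SD, n = 4 each). Neurog2 averaged 116 ± 22.4, 297 ± 46 and 42 ± 16.4 CPM in the same order and was also highest in the middle population. Neurod1 averaged 1.43 ± 0.595, 361 ± 39.1 and 37.1 ± 5.51 CPM, and its range in TBR2+, 321 to 398 CPM, lay above both ends. For these genes the middle population thus stood above both ends. Cdkn1c likewise averaged 2.25 ± 0.628, 80.2 ± 18.7 and 34.3 ± 5.22 CPM. Rest, by contrast, was lowest in the middle, at 135 ± 4.1, 12.9 ± 2.73 and 32.5 ± 3.22 CPM. No test was made here, since these comparisons would share libraries.

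**Figure D3:**
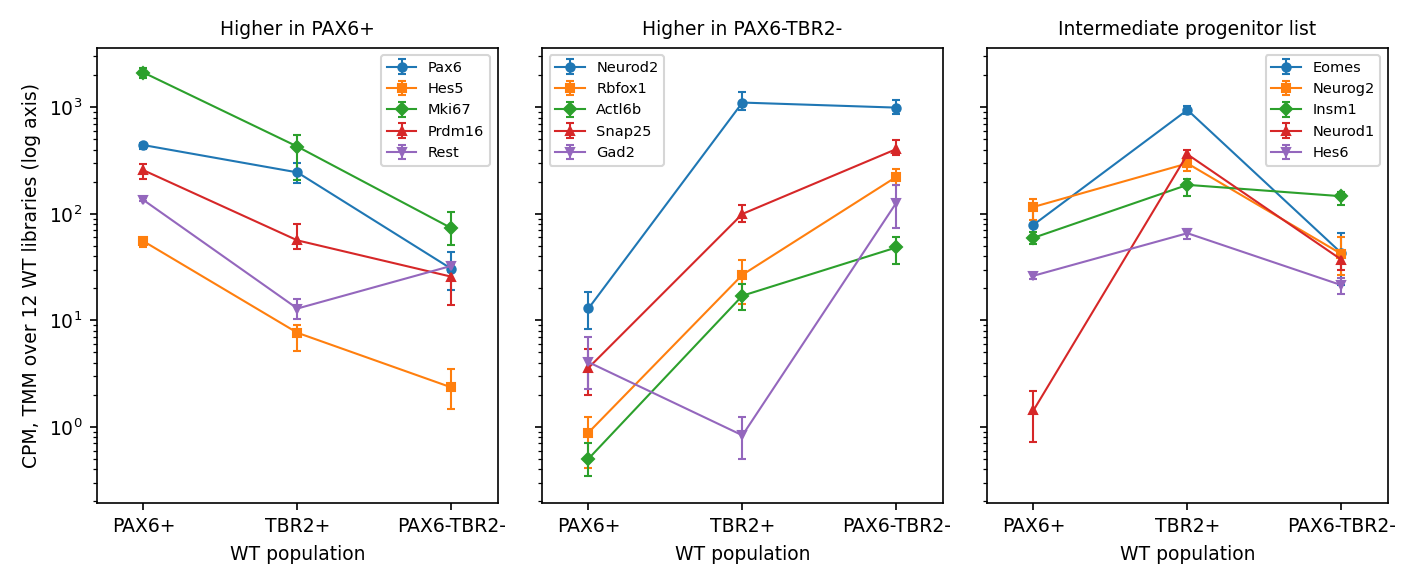
Mean level of 15 genes in WT PAX6+, TBR2+ and PAX6-TBR2- libraries (4 each), in CPM scaled over the 12 WT libraries on a log axis, with bars from the lowest to the highest library. The means of the intermediate progenitor genes (right panel) peak in TBR2+, whereas Pax6, Hes5, Mki67 and Prdm16 (left) fall step by step and Snap25, Rbfox1 and Actl6b (middle) climb.

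Neuronal transcription factors were lower in PAX6+ cells for 20 of 20 members, 16 of them strongly, with a median log2 fold change of -3.60. Neurod6, a basic helix-loop-helix factor of excitatory cortical neurons, had 10.8, 6.16, 9.13 and 7.38 CPM in WT PAX6+ libraries, against 1309, 1210, 1344 and 1090 CPM in WT PAX6-TBR2- libraries, with a log2 fold change of -7.21 ± 0.17 (SE) and an adjusted p of 2.17e-13. Neurod2, its close relative, had 10.3, 16.4, 19.5 and 8.92 CPM in PAX6+, against 1062, 909, 1251 and 1036 CPM in PAX6-TBR2-, and Mef2c, an activity-regulated factor, 39.5, 29.7, 32.6 and 38.6 CPM in PAX6+, against 336, 262, 302 and 284 CPM in PAX6-TBR2-. The log2 fold changes were -6.25 for Neurod2 and -3.08 for Mef2c. The members kept residual counts in all PAX6+ libraries.

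Factors of both deep and upper layers were on the neuronal side. Deep-layer and subplate genes were lower in PAX6+ cells for 10 of 13 members and higher for 2. Bcl11b, or CTIP2, which directs subcerebral projection neurons, had 9.49, 9.38, 9.0 and 6.93 CPM in WT PAX6+ libraries, against 927, 822, 675 and 627 CPM in WT PAX6-TBR2- libraries, with a log2 fold change of -6.44 ± 0.17 (SE). Tbr1, which specifies corticothalamic neurons, had 5.88, 4.28, 17.3 and 5.94 CPM in PAX6+, against 879, 735, 526 and 498 CPM in PAX6-TBR2-, with PAX6+ replicate 3 above the other PAX6+ libraries, and a log2 fold change of -6.26. Fezf2, which acts upstream of Bcl11b, differed by less, at 171, 171, 148 and 148 CPM in PAX6+, against 633, 557, 516 and 472 CPM in PAX6-TBR2- and -1.77. The members higher in PAX6+ cells were Nr4a2, a nuclear receptor of the subplate, at 78.9, 83.9, 57.4 and 71.8 CPM in PAX6+, against 28.6, 21.9, 32.2 and 28 CPM in PAX6-TBR2-, and Ccn2, a matrix protein gene that is also a YAP target, at 9.2, 8.18, 7.32 and 9.47 CPM in PAX6+, against 0, 1.1, 0.572 and 0.561 CPM in PAX6-TBR2-. Upper-layer genes were lower in PAX6+ cells for 8 of 13 members. Unc5d, a netrin receptor of upper-layer neurons, had 12.3, 5.56, 11.3 and 9.14 CPM in PAX6+, against 109.7, 143, 117 and 136 CPM in PAX6-TBR2-, with a log2 fold change of -3.72. Lhx2, a selector gene of cortical progenitors, was higher in PAX6+ cells, at 696, 766, 648 and 621 CPM in PAX6+, against 253, 329, 379 and 406 CPM in PAX6-TBR2- and 1.00. Cux1, Pou3f2 and Pou3f3, which are used by progenitors and upper-layer neurons, were not called, with log2 fold changes of 0.11, 0.12 and 0.00. For Cux1, PAX6-TBR2- replicates 1 and 2 lay below all PAX6+ libraries and replicates 3 and 4 above them.

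The neuronal cytoskeleton list was lower in PAX6+ cells for 20 of 20 members, 17 strongly, with a median of -3.60. Its summed level was 4605 to 4845 CPM in WT PAX6+ libraries and 21300 to 24600 CPM in WT PAX6-TBR2- libraries. Tuba1a, the main alpha tubulin of young neurons, had 319, 302, 289.6 and 261 CPM in WT PAX6+ libraries, against 2983, 3086, 2765 and 2325 CPM in WT PAX6-TBR2- libraries, with a log2 fold change of -3.25 ± 0.12 (SE). Crmp1, which acts in axon growth, had 28.7, 19.2, 35.4 and 27 CPM in PAX6+, against 727, 624, 780.1 and 748 CPM in PAX6-TBR2-, and Dclk1, a doublecortin-like kinase, 69.8, 55.5, 69.6 and 74.8 CPM in PAX6+, against 732, 723, 684 and 669 CPM in PAX6-TBR2-. Map2, a dendritic microtubule protein, had 307, 295, 279 and 332 CPM in PAX6+, against 1968, 1879, 1784 and 1675 CPM in PAX6-TBR2-, a log2 fold change of -2.59, and was thus well above 0 in PAX6+ cells.

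Radial migration genes were lower in PAX6+ cells for 11 of 18 members, higher for 2 and not called for 5. Nrp1, a semaphorin receptor, had 5.6, 4.13, 5.98 and 4.18 CPM in PAX6+, against 214, 201, 268 and 258 CPM in PAX6-TBR2-, and Cdk5r1, the activator p35 of the kinase CDK5, had 9.58, 9.54, 12.8 and 7.38 CPM in PAX6+, against 340.5, 287, 406 and 333 CPM in PAX6-TBR2-. The log2 fold changes were -5.55 for Nrp1 and -5.10 for Cdk5r1. Rnd3, a small GTPase, was higher in PAX6+ cells by 0.69, and so was Filip1, a regulator of filamin, by 1.37. Pafah1b1, which encodes LIS1, and Ndel1, its dynein partner, serve nuclear movement in progenitors as well. They were not called, with log2 fold changes of -0.04 for Pafah1b1 and -0.03 for Ndel1, which became 0.40 and 0.42 with library totals alone.

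Genes of the synaptic vesicle were lower in PAX6+ cells for 21 of 23 members, 19 strongly, ion channel and transmitter receptor genes for 22 of 23, 21 strongly, and adhesion and axon guidance genes for 19 of 22, 15 strongly. Snap25, part of the release machinery, had 5.79, 2.18, 4.1 and 3.19 CPM in WT PAX6+ libraries, against 519, 414, 415 and 389.7 CPM in WT PAX6-TBR2- libraries, with a log2 fold change of -6.84 ± 0.22 (SE) and an adjusted p of 1.30e-12. The synaptic calcium sensor Syt1 had 2.28, 3.08, 2.89 and 2.53 CPM in PAX6+, against 111, 115, 125 and 118 CPM in PAX6-TBR2-. Kcnq3, a potassium channel subunit that dampens firing, had 9.11, 6.16, 6.98 and 5.5 CPM in PAX6+, against 920.2, 939.5, 623 and 609 CPM in PAX6-TBR2-, and the AMPA receptor subunit Gria3 had 11.1, 8.93, 12.8 and 10.7 CPM in PAX6+, against 261, 226, 177 and 163 CPM in PAX6-TBR2-. Each was at a small fraction of the neuronal level in all PAX6+ libraries, with log2 fold changes of -5.42 for Syt1, -6.79 for Kcnq3 and -4.24 for Gria3. Robo1 and Robo2, receptors for the repellent Slit, had log2 fold changes of -4.19 and -5.17. Of the exceptions, Rims2, Cntnap2 and Efna5 were not called, with log2 fold changes of -0.24, -0.38 and -0.53. Syt11, Grik2 and Nrcam were called the other way. Syt11, an atypical synaptotagmin, had 378, 349, 383 and 372 CPM in PAX6+, against 210.2, 203, 256 and 240 CPM in PAX6-TBR2-. Grik2, a kainate receptor subunit, had 256, 264, 242 and 274 CPM in PAX6+, against 75.3, 114, 91.4 and 108 CPM in PAX6-TBR2-. Nrcam, an adhesion molecule, had 208, 205, 209.5 and 200.5 CPM in PAX6+, against 183, 168, 155 and 132 CPM in PAX6-TBR2-. The call of Nrcam was lost with all 24 libraries in the fit (0.38, adjusted p = 0.0909). In the main test these 3 were higher in PAX6+ cells, by 0.70 for Syt11, 1.41 for Grik2 and 0.37 for Nrcam on the log2 scale. Interneurons also express most of these genes, and their markers summed to 26.1 to 48.4 CPM in WT PAX6+ and 500.3 to 1308 CPM in WT PAX6-TBR2- libraries, whose part in these lists was not tested.

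RNA-binding proteins were lower in PAX6+ cells for 14 of 22 members, 13 strongly, and higher for 5. Rbfox1, a splicing regulator of mature neurons, had 0.854, 0.451, 1.14 and 1.32 CPM in WT PAX6+ libraries, against 281, 241, 227 and 204 CPM in WT PAX6-TBR2- libraries, with a log2 fold change of -7.99 ± 0.21 (SE) and an adjusted p of 2.97e-13. Srrm4, which promotes neural microexons, had 50, 43.4, 47.5 and 35.2 CPM in PAX6+, against 1114, 1042, 1208 and 1053 CPM in PAX6-TBR2-, and Nova2 had 49, 49.9, 57 and 41.8 CPM in PAX6+, against 388, 363, 429 and 364 CPM in PAX6-TBR2-. Ptbp1, which represses neuronal exons in progenitors, was on the other side at 319.9, 263, 264 and 215 CPM in PAX6+, against 79.6, 65.7, 97.2 and 108 CPM in PAX6-TBR2-, with a log2 fold change of 1.59 ± 0.15 (SE). Its neuronal paralog Ptbp2 was not called, at 173, 206, 152 and 182 CPM in PAX6+, against 188, 222, 177 and 217 CPM in PAX6-TBR2- and a log2 fold change of -0.17 ± 0.12 (SE). Nova1 moved opposite to Nova2, at 58.2, 47.9, 42 and 58.9 CPM in PAX6+, against 13.3, 17.7, 11.6 and 18.1 CPM in PAX6-TBR2-, with log2 fold changes of 1.74 for Nova1 and -2.96 for Nova2. Msi2, an RNA-binding protein of neural stem cells, was higher by 1.32.

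Chromatin regulators moved in both directions, with 12 of 24 higher in PAX6+ cells, 9 lower and 3 not called, for a median of 0.36. The BAF remodelling complex exchanges subunits when neurons form. Actl6b, the subunit BAF53b of neurons, had 0.474, 0.375, 0.739 and 0.55 CPM in WT PAX6+ libraries, against 56, 35.7, 64.2 and 51.8 CPM in WT PAX6-TBR2- libraries, with a log2 fold change of -6.55 ± 0.26 (SE). Actl6a, the progenitor counterpart BAF53a, had 33.7, 39.7, 35 and 38.8 CPM in PAX6+, against 21.8, 19.4, 18.6 and 24 CPM in PAX6-TBR2-, with a log2 fold change of 0.80 ± 0.13 (SE). The difference was large for the neuronal subunit gene and smaller for its counterpart. Among Polycomb methyltransferases Ezh2 had 246, 277, 274 and 307 CPM in PAX6+, against 168, 221, 154 and 176 CPM in PAX6-TBR2- and Ezh1 had 17.4, 18.5, 21.9 and 17.8 CPM in PAX6+, against 42.3, 39, 39.9 and 35.3 CPM in PAX6-TBR2-, with log2 fold changes of 0.62 for Ezh2 and -1.04 for Ezh1. Rest, a repressor of neuronal genes, had 140, 147, 138 and 149 CPM in PAX6+, against 32.8, 30.5, 38.1 and 38.1 CPM in PAX6-TBR2-, with a log2 fold change of 2.03. A pair of PRDM genes stood at opposite ends. Prdm16 had 290.4, 267, 309 and 227 CPM in WT PAX6+ libraries, against 14.8, 28.2, 30.3 and 37.3 CPM in WT PAX6-TBR2- libraries, with a log2 fold change of 3.26 ± 0.20 (SE), and Prdm8, a repressor in cortical neurons, had 1.14, 0.976, 1.14 and 0.77 CPM in PAX6+, against 226, 175, 253 and 219.9 CPM in PAX6-TBR2-, with a log2 fold change of -7.73 ± 0.18 (SE).

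Metabolic genes divided by pathway. Serine, one-carbon and lipid synthesis genes were higher in PAX6+ cells for 13 of 18 members and lower for 1. The enzymes that make serine were among them. Phgdh, the first of that route, had 27.3, 22, 32 and 27.7 CPM in WT PAX6+ libraries, against 1.57, 2.01, 2.0 and 1.6 CPM in WT PAX6-TBR2- libraries, with a log2 fold change of 3.95 ± 0.20 (SE). Psat1, the next, had 359, 320.4, 372 and 404 CPM in PAX6+, against 21.6, 30.7, 27.3 and 36.6 CPM in PAX6-TBR2-, and Psph, the last, 44.7, 40.8, 58.9 and 48.9 CPM in PAX6+, against 12.4, 11.3, 9.59 and 8.98 CPM in PAX6-TBR2-. The log2 fold changes were 3.62 for Psat1 and 2.23 for Psph. Acaca, rate-limiting in fatty acid synthesis, was not called, with a log2 fold change of -0.07 ± 0.10 (SE), and library totals alone turned this to 0.38.

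Glycolytic genes were higher in PAX6+ cells for 12 of 17 members and lower for 5, several of which are isozymes of each other. Aldoc, the aldolase of astroglia, had 214, 169.7, 222 and 189.6 CPM in PAX6+, against 7.64, 16.1, 5.87 and 15.4 CPM in PAX6-TBR2-, and Hk2, a hexokinase, had 46.6, 59.5, 43.7 and 50.8 CPM in PAX6+, against 11, 14.4, 12.6 and 13.3 CPM in PAX6-TBR2-. Hk1, the main brain hexokinase, had 13.2, 8.26, 11.3 and 8.81 CPM in PAX6+, against 35.3, 26.9, 45.6 and 35.8 CPM in PAX6-TBR2-. Of the enolase genes, Eno1 had 68.2, 55.4, 62.5 and 49.2 CPM in PAX6+, against 14.2, 24.7, 21.2 and 23 CPM in PAX6-TBR2- and the neuronal Eno2 had 9.39, 7.58, 5.71 and 7.49 CPM in PAX6+, against 24.1, 17.7, 23.3 and 17.7 CPM in PAX6-TBR2-. The log2 fold changes were 1.95 for Hk2 and -1.79 for Hk1, and 1.48 for Eno1 and -1.45 for Eno2. Pfkp, the platelet type phosphofructokinase, was lower in PAX6+ cells by a larger margin, at 8.92, 8.78, 11.7 and 9.69 CPM in PAX6+, against 191, 132, 165 and 122 CPM in PAX6-TBR2-.

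Nuclear genes of oxidative phosphorylation were not called for 18 of 20 members, with 2 higher in PAX6+ cells and a median of 0.14. Sdha, of complex II, had 138, 133, 172 and 169 CPM in PAX6+, against 90.1, 104, 99.9 and 102 CPM in PAX6-TBR2-, with a log2 fold change of 0.62 ± 0.11 (SE). Without PAX6+ replicate 1 the list had 4 members higher and without PAX6-TBR2- replicate 1 or 3 it had 1. The count depended on the scaling, with 17 members called higher under library totals alone, while removal of the trend with length and GC gave 5 higher and 5 lower. Of the 7 mitochondrially encoded protein genes tested, 5 were lower in PAX6+ cells under TMM, but under library totals 2 were lower and 1 higher. Ribosomal protein genes were higher for 11 of 20 members and lower for 1, or 18 and 0 under library totals. Their median was 0.48, with Rps18 at 40.7, 37.4, 43.4 and 37.8 CPM in PAX6+, against 17.3, 19.9, 23.5 and 26.3 CPM in PAX6-TBR2- and Rplp0 at 98.3, 85.3, 96.6 and 102 CPM in PAX6+, against 55.1, 48.1, 52.4 and 64.4 CPM in PAX6-TBR2-, while Rpl13 was lower at 17.3, 21, 21.5 and 20.7 CPM in PAX6+, against 35.5, 34, 29.9 and 22.1 CPM in PAX6-TBR2-, except that it was not called under library totals. Ribosomal proteins have many processed pseudogenes, so reads may have been shared with them.

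**Figure D4:**
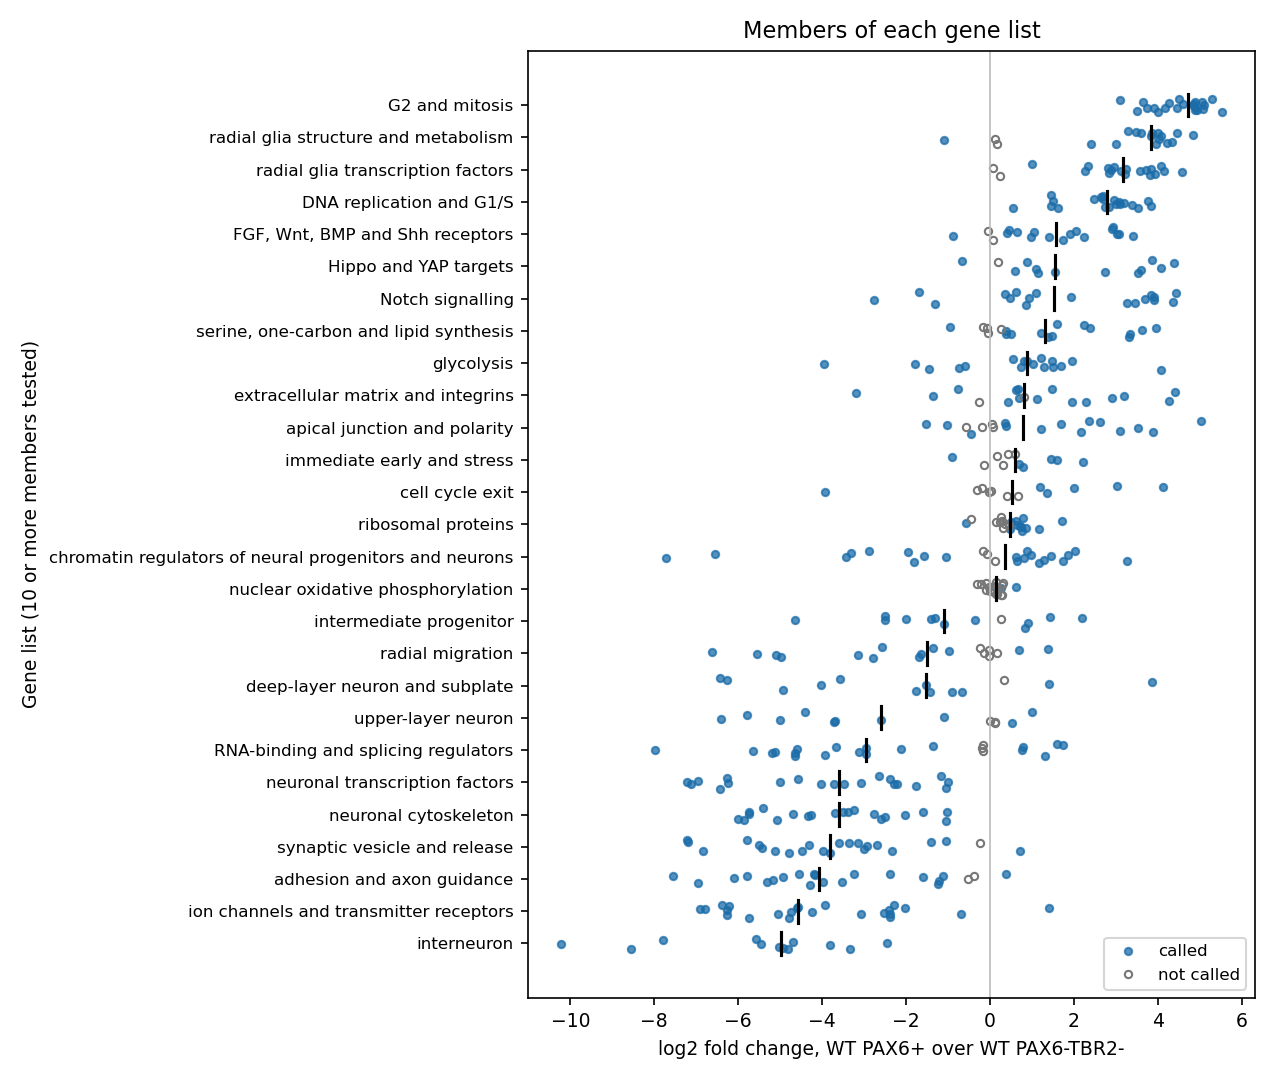
Log2 fold change of WT PAX6+ over WT PAX6-TBR2- for each member of the 27 gene lists with 10 or more members tested, one point per gene (filled, called; open, not called), with a black bar at the list median. Lists run from the interneuron genes at the bottom, with a median of -4.98, to G2 and mitosis at the top, with a median of 4.71.

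The protein-coding genes with the largest differences were named by size among those with at least 20 CPM in the higher group and groups that did not overlap. The 12 highest in PAX6+ cells were Depdc1b, Ccnb1, Dct, Kif11, Troap, Iqgap3, Hmmr, Ube2c, Bub1, Pif1, Shcbp1 and Dlgap5, with log2 fold changes of 5.04 to 5.77. Of these, Ccnb1, Kif11, Ube2c and Bub1 belong to the G2 and mitosis list. Dct encodes dopachrome tautomerase, an enzyme of melanin synthesis, and had 42.7, 37.5, 20.6 and 43 CPM in PAX6+, against 0.225, 1.46, 0.286 and 1.12 CPM in PAX6-TBR2-. The 12 lowest in PAX6+ cells were Sla, Lhx6, Kcng1, Mc4r, Tnr, Glra2, Hs3st4, Ppp1r16b, Rbfox1, Cdh12, Sst and Jakmip1, 2 of which, Lhx6 and Sst, mark interneurons. Sla, which encodes an adaptor protein of receptor signalling, had 2 counts over the WT PAX6+ libraries and 4131 over the WT PAX6-TBR2- libraries. That makes Sla 2361-fold higher in PAX6-TBR2-, with an exact 95% counting interval of 653.2 to 19500. The potassium channel subunit gene Kcng1 had 2 and 1915 counts, a ratio of 1095 (302.6 to 9044). Glra2, a glycine receptor subunit, had 3 and 992 counts, a ratio of 378 (129 to 1836), and Tnr, the matrix protein tenascin-R, had 3 and 1243 counts, a ratio of 473.6 (161.7 to 2300). Because cDNA was amplified without molecular identifiers, these intervals cover counting error only.

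Markers of other cell types were examined in both groups. All 12 interneuron genes tested were strongly lower in PAX6+ cells, with a median of -4.98. Gad2, a GABA-synthesizing enzyme, had 7.4, 2.48, 3.76 and 3.63 CPM in WT PAX6+ libraries, against 78.9, 116, 148 and 205 CPM in WT PAX6-TBR2- libraries, with a log2 fold change of -5.02 ± 0.32 (SE). Lhx6, a factor of interneurons from the medial ganglionic eminence, had 0.0949, 0, 0.336 and 0.11 CPM in PAX6+, against 105, 122, 218 and 296 CPM in PAX6-TBR2-, and Sst, the peptide somatostatin, had 0, 0, 0.403 and 0.11 CPM in PAX6+, against 18.4, 21.4, 39.1 and 55.4 CPM in PAX6-TBR2-. Lhx6 and Sst passed the filter on low counts only through their PAX6-TBR2- levels, so the filter fixed their direction. Both are among the 12 genes counted and enter the median of -4.98, which thus rest in part on the filter. Npy, another peptide, had no count over the PAX6+ libraries and 201 over the PAX6-TBR2- libraries, at least 76.6-fold lower in PAX6+ against a floor of 3 counts over the group. The PAX6-TBR2- libraries differed among themselves for these genes, replicate 4 holding the highest values of Gad2, Lhx6 and Sst. In the WT TBR2+ libraries Gad2 averaged 0.834 ± 0.392 CPM. The PAX6-TBR2- libraries thus held markers of interneurons beside those of excitatory neurons, and their part in the neuronal lists was not tested.

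Markers of Cajal-Retzius cells, early neurons of the cortical surface, stood high in 1 PAX6+ library. Reln, their secreted signal, had 30.5, 36.9, 284 and 49.3 CPM in WT PAX6+ libraries, against 134, 169, 167 and 141 CPM in WT PAX6-TBR2- libraries, PAX6+ replicate 3 being far above the other PAX6+ libraries. The same library stood high for Ebf3, at 2.47, 3.15, 13.8 and 2.97 CPM in PAX6+, against 4.5, 5.3, 4.01 and 5.09 CPM in PAX6-TBR2-, and for Trp73, at 1.23, 2.25, 11.9 and 3.08 CPM in PAX6+, against 1.35, 2.38, 2.43 and 1.24 CPM in PAX6-TBR2-. Reln was not called, at a log2 fold change of -0.60, but was lower in PAX6+ cells without PAX6+ replicate 3 (-1.97, adjusted p = 6.23e-08), in limma-voom (-1.21, adjusted p = 0.0275) and with a replicate block (-1.29, adjusted p = 0.0147), and turned to 0.23 (adjusted p = 0.692) with the trend with length and GC removed. Of the 5 members tested, 1 was lower in PAX6+ cells, the chemokine gene Cxcl12 at -2.12, and 1 was higher, Trp73. For Trp73 the log2 fold change of 1.42 dropped to 0.30 (adjusted p = 0.532) without PAX6+ replicate 3. The call of Trp73 was also lost without any single PAX6-TBR2- replicate, at 1.16 to 1.60. Ebf3, not called at 0.27, turned to -0.72 (adjusted p = 0.0248) without PAX6+ replicate 3. That library also gave the highest PAX6+ value of Eomes, whose part was not tested. Without it, 9417 genes were called in the WT comparison, and the lists of radial glia, G2 and mitosis, DNA replication, neuronal factor, cytoskeleton, synapse and channel genes kept counts within 1.5 times those above.

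**Figure D5:**
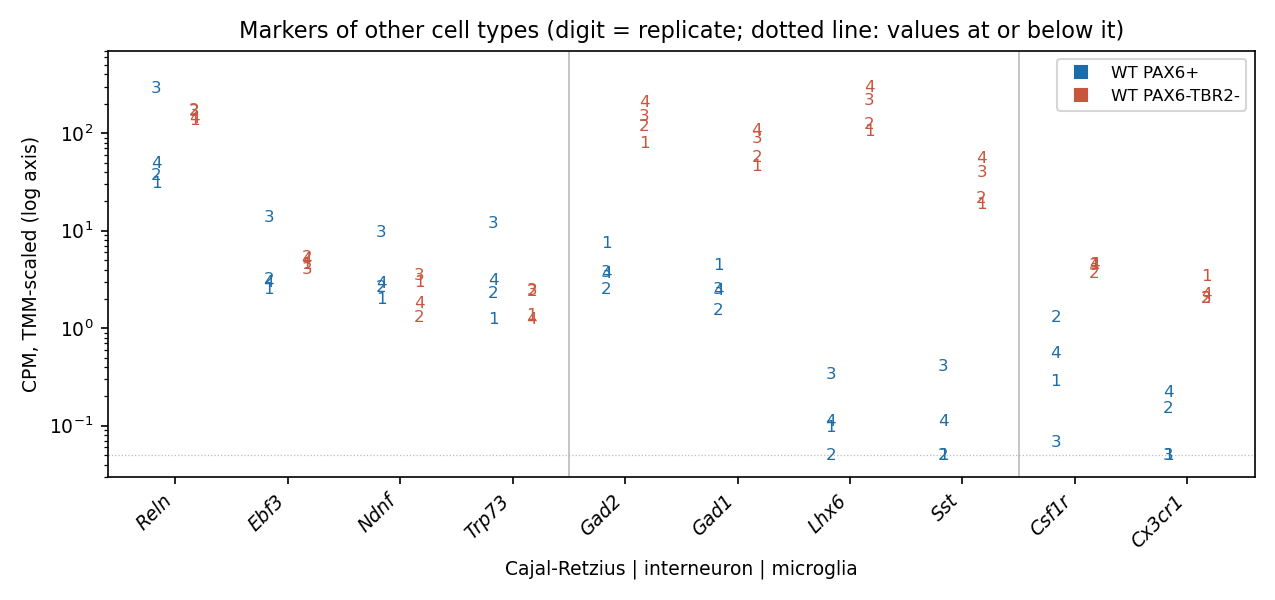
Levels of markers of Cajal-Retzius cells, interneurons and microglia in each library, as TMM-scaled CPM on a log axis, where a digit gives the replicate number and values at or below 0.05 CPM are drawn on the dotted line. Blue digits (left of each pair) are WT PAX6+ and red digits WT PAX6-TBR2-. Replicate 3 of WT PAX6+ stands above the others for Reln, Ebf3, Ndnf and Trp73, and all red digits lie above all blue ones for the interneuron and microglia genes.

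Other marker lists were examined likewise. Microglia genes summed to 1.04 to 2.48 CPM in WT PAX6+ libraries and 12.8 to 16.9 CPM in WT PAX6-TBR2- libraries, and 6 of the 11 were at 0 in all PAX6+ libraries. The 3 tested were lower in PAX6+ cells, among them Cx3cr1, the fractalkine receptor, at 0, 0.15, 0 and 0.22 CPM in PAX6+, against 3.37, 2.01, 2.0 and 2.21 CPM in PAX6-TBR2-. These 3 passed the filter on low counts only through their PAX6-TBR2- levels, so their common direction was fixed by the filter. Endothelial and mural genes summed to 20.1 to 57.4 CPM in PAX6+ and 23.1 to 52.7 CPM in PAX6-TBR2-, with 2 of 9 higher and 1 lower. Those counts rested on single libraries, with 5 lower without PAX6-TBR2- replicate 4, 3 without PAX6+ replicate 3 and 0 without PAX6-TBR2- replicate 3, and 1 higher without PAX6+ replicate 1 or PAX6-TBR2- replicate 4. Erythroid genes, with sums of 16.7 to 27.5 CPM in PAX6+ and 20.5 to 40.4 CPM in PAX6-TBR2-, had 0 of 3 members called in edgeR's quasi-likelihood test, 0 at an unadjusted p under 0.05 and 0 in DESeq2 or limma-voom, but 1 was lower with no filter on low counts and 1 after thinning to the shallowest library. Meningeal genes summed to 12.5 to 16 CPM in PAX6+ and 6.97 to 13 CPM in PAX6-TBR2-, with 2 of 3 higher, among them Ogn, at 6.92, 7.21, 6.45 and 5.83 CPM in PAX6+, against 0.225, 0.366, 0.286 and 0.201 CPM in PAX6-TBR2-. The third, the growth factor gene Igf2, was lower, with a log2 fold change of -1.01 (adjusted p = 0.0267), and lost its call without PAX6+ replicate 1 (-0.93) or 2 (-0.69) or PAX6-TBR2- replicate 2 (-0.84) or 3 (-0.85). Of the choroid plexus and hem genes, Wnt8b, a ligand of the medial cortex, was higher in PAX6+ cells at 13, 9.16, 2.82 and 13 CPM in PAX6+, against 0.899, 0.732, 0 and 0.201 CPM in PAX6-TBR2-, and Rspo3, a Wnt enhancer, was lower at 1.71, 3.08, 3.16 and 5.06 CPM in PAX6+, against 87.9, 86.9, 52.9 and 51.3 CPM in PAX6-TBR2-. Ogn and Wnt8b passed the filter on low counts only through their PAX6+ levels, so their direction was fixed by the filter. A second member of the choroid plexus and hem list was called higher without PAX6+ replicate 3 or any single PAX6-TBR2- replicate. Immediate early and stress genes, which respond to dissociation among other things, were higher for 5 of 11 and lower for 1, with Jun at 289, 292, 304 and 279 CPM in PAX6+, against 87.9, 107, 90.3 and 102 CPM in PAX6-TBR2- and Fos at 48.4, 76.1, 42.9 and 56.9 CPM in PAX6+, against 13.3, 30.9, 22.6 and 16.6 CPM in PAX6-TBR2-. The lower members were 2 without any single PAX6+ replicate or PAX6-TBR2- replicate 3, and 10 members were higher under library totals alone.

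The same contrast was made in KO embryos, in 4 KO PAX6+ and 4 KO PAX6-TBR2- libraries that are separate from the WT ones. There 8928 of 14029 genes (63.6%) were called, 31.8% higher and 31.9% lower in PAX6+ cells, with 8.94% strongly higher and 10.1% strongly lower. Of the 4654 genes called higher in WT and tested in both, 3970 (85.3%) were called higher in KO and 2 lower. Of the 4594 called lower in WT, 4054 (88.2%) were called lower in KO and 8 higher. Of the 1200 genes strongly higher in WT and tested in both, 1188 (99.0%) were called higher in KO as well, and of 1388 strongly lower, 1371 (98.8%) were called lower. The medians of those genes were 3.08 in WT and 3.19 in KO, and -3.42 in WT and -3.32 in KO. A test of the difference between the contrasts called 117 of 15102 genes (0.775%). Pax6 had a log2 fold change of 3.82 in WT and 3.93 in KO, Mki67 4.83 and 5.04, Neurod6 -7.21 and -7.19, and Snap25 -6.84 and -7.44. KO libraries share the name prefix of the WT libraries of their population, so handling cannot be told apart from the population here either.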

How the data were processed

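Per the labels' protocols, sorted cells were lysed for RecoverAll RNA purification, and cDNA was amplified isothermally from single primers (Ovation RNA-seq V2), without molecular identifiers. FastQC, cutadapt, STAR, featureCounts, DESeq2 and the build mm10 are named by the submitters' processing notes, without versions. Neither the annotation release nor the strand setting of the counting was given, so a gene's reads may include those of a gene overlapping it on the other strand, which the annotation shows for 63 of the 244 genes examined by name. The deposited count tables hold raw counts per Ensembl gene, and the 2 lane columns of a library were summed. The deposited normalized tables hold signal values. Within a tolerance of 1e-06, 100% of them were whole multiples of 1 read, so whole reads were recovered. In WT PAX6+ they equalled the raw counts, but in WT PAX6-TBR2- only 1 of 4 columns did, that of replicate 3. The unmatched columns held more, 6692250, 9115045 and 60078232 reads. Raw totals of WT PAX6-TBR2- replicates 1, 2 and 4 were 4948977, 6143259 and 30027954. Where the further reads come from is not given. Raw counts were used, and the recovered reads, which gave 9635 calls, were an alternative.

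Of 39017 genes, 37693 were named with GENCODE M21 (GRCm38). Identifiers without a match, 1324 in number, took 0.232% to 0.325% of the counts per library of the WT comparison. WT PAX6+ was set against WT PAX6-TBR2- in edgeR 4.0.16 (R 4.3.3) by the quasi-likelihood F test after filterByExpr and TMM scaling, two-sided, with Benjamini-Hochberg adjustment over all genes tested. Where no tool is named, an adjusted p is from that test. Fold changes are WT PAX6+ over WT PAX6-TBR2-, and their SE is the size divided by the square root of F. The KO contrast and the difference of the contrasts were fitted likewise. Alternatives used DESeq2 1.42.0, limma 3.58.1 and mgcv 1.9.3.

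Libraries of a group differed from each other by 6.45 to 16.3 in chi-square per degree of freedom, so none was counted as a duplicate. Genes named were, in each direction, the 12 largest called protein-coding genes with at least 20 CPM in the higher group and no overlap, up to 4 members of each list in its main direction and 3 in the other, members not called where 5 or fewer, and a set of markers. The members and lists were chosen with earlier results of these data known. Results for some members are not reported here.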

Additional observations from a re-analysis of the deposited data

Results flagged for a closer look

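A library stood far from the other 3 of its group by Dixon's criterion for 23 of 492 groups of 4 values examined. Chance flags about 1 in 20 groups.

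PAX6+ replicate 3 was high for genes of early neurons, with Reln at 283.8 CPM against 30.5 to 49.3 CPM in the other WT PAX6+ libraries, Ebf3 at 13.8 against 2.47 to 3.15 CPM, Ndnf at 9.67 against 1.99 to 2.86 CPM, Tbr1 at 17.3 against 4.28 to 5.94 CPM and, from the intermediate progenitor list, Sstr2 at 6.45 against 4.58 to 4.84 CPM. The same library was lowest for Pou3f3, at 219 CPM, and Rcor1, at 74.7 CPM, and was the only PAX6+ library with counts of Sla, at 0.134 CPM, and of Mc4r, at 0.0672 CPM.

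PAX6+ replicate 4 was lowest for Bcan, at 114 CPM, and Dpf2, at 55.8 CPM, and highest for Rbl1, at 95.1 CPM, and Ldha, at 221.6 CPM against 162 to 169 CPM in the others. PAX6+ replicate 2 was lowest for Rab3c, at 1.28 CPM. PAX6-TBR2- replicate 1 was highest for Mc4r, at 35.7 CPM, and Cx3cr1, at 3.37 CPM. PAX6-TBR2- replicate 2 was lowest for Numbl, at 68.6 CPM, Slc6a11, at 0.366 CPM, and Csf1r, at 3.66 CPM, and was the only PAX6-TBR2- library with Aqp4, at 0.366 CPM. PAX6-TBR2- replicate 3 was highest for Col4a2, at 24.6 CPM, and Hbb-bt, at 6.30 CPM. PAX6-TBR2- replicate 4 had the highest total, 30.0 M counts against 4.95 to 8.64 M.

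Of the genes named, 8 differed between WT and KO in the size of the contrast, by the interaction term of edgeR's quasi-likelihood test with Benjamini-Hochberg adjustment. The difference, WT log2 fold change minus KO log2 fold change, was -2.28 for Sema6d (adjusted p = 3.95e-05), -1.67 for Epha3 (adjusted p = 9.70e-05), -1.28 for Nrp1 (adjusted p = 0.00667), -1.03 for Syt1 (adjusted p = 0.0180), -0.89 for Lama1 (adjusted p = 0.0139) and -0.88 for Cdk5r1 (adjusted p = 0.0450). It was 1.92 for Cntnap2 (adjusted p = 0.0140) and 1.12 for Dcx (adjusted p = 0.0323). Sema6d, a transmembrane semaphorin, had a log2 fold change of -4.30 in WT and -2.04 in KO, and Epha3, an ephrin receptor, -4.55 in WT and -2.90 in KO. Cntnap2, an axonal adhesion protein, had -0.38 in WT, not called, and -2.32 in KO.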

How the results depend on the processing

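Leaving out 1 library at a time gave 9192 to 9694 genes called, 4662 to 4915 higher and 4527 to 4779 lower, with 1317 to 1411 strongly higher and 1475 to 1561 strongly lower. The KO contrast gave 8541 to 9010 calls and the difference between contrasts 84 to 109. A filter of at least 10 CPM in 4 libraries gave 801 strongly higher and 874 strongly lower, since fewer genes were tested, and no filter gave 1988 and 2356, and 219 in place of 117 for the difference between contrasts. A test against a 2-fold minimum change (glmTreat) called 4103 genes, 1951 higher and 2152 lower. Library totals alone gave 7431 higher and 3094 lower. DESeq2's Wald test, DESeq2's size factors, limma-voom, upper-quartile factors, all 24 libraries in the fit, thinning to the shallowest library, removal of mitochondrially encoded genes or of the length and GC trend, and recovered reads kept each count of the WT comparison within 1.5 times. For the KO contrast and the difference between contrasts, the alternatives run were DESeq2's size factors, no filter, a replicate block and leaving out libraries.

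Of the single genes named, library totals alone turned Bmpr2 (0.41), Pafah1b1 (0.40), Ndel1 (0.42), Igf2bp3 (0.26), Igf2bp2 (0.28), Dpf2 (0.37), Sqle (0.27), Acaca (0.38), mt-Co1 (0.42) and Hspa8 (0.29) upwards, none of them called in the main test. Removal of the length and GC trend turned Cdc42 (-0.38), Bmpr2 (0.33), Acaca (0.52) and Col4a2 (0.052), and leaving out PAX6+ replicate 3 turned Ebf3, whose value without single libraries ran from -0.72 to 0.54. The cause was not tested.

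Same-numbered libraries correlated at 0.0362, 0.0853, 0.148 and -0.0105 in their deviations from the group means. Libraries with different numbers correlated at -0.18 to 0.194. With 4 libraries per group these values cannot show whether the numbers pair the samples, and the labels do not say so. A replicate block gave 9552 genes called in WT, 8882 in KO and 157 for the difference between contrasts. Many genes of other cell types had too few counts to be tested.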

Other observations

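Gene length and base composition went with direction. In the fifth of tested genes with the longest span, 71920 bases or more, 292 were strongly higher in PAX6+ cells and 545 strongly lower, with a median log2 fold change of -0.25. In the fifth with the shortest span the counts were 251 and 270. In the fifth with the highest GC content of the longest transcript, 215 were strongly higher and 436 strongly lower. Whether length or GC content has a part in the neuronal lists beyond the alternative that removes their trend was not tested.

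Of the 316 long noncoding RNAs annotated as lincRNA and tested, 114 were higher in PAX6+ cells and 85 lower. Over all 14308 genes tested the counts were 4826 higher and 4704 lower, and the difference in shares was not tested. Of the 11 glial precursor and astrocyte genes, 5 were tested, of which 4 were higher in PAX6+ cells and 1 lower, all at low levels. The summed level of the list was 17.94 to 38.55 CPM in PAX6+ and 26.88 to 46.07 CPM in PAX6-TBR2-. Among the higher members, Slc6a11 lost its call without PAX6+ replicate 1 or 3 or PAX6-TBR2- replicate 2, and in limma-voom. Apoe lost its call without PAX6+ replicate 3 or PAX6-TBR2- replicate 2. Aldh1l1, an astrocyte enzyme, had 4.65, 2.03, 4.97 and 2.20 CPM in PAX6+, against 0, 0.914, 0.143 and 0.321 CPM in PAX6-TBR2-. It passed the filter on low counts only through its PAX6+ levels, so its direction was fixed by the filter. Sparcl1, a secreted matrix protein, was the lower member, at 5.03, 1.88, 10.1 and 6.50 CPM in PAX6+, against 31.0, 20.3, 32.5 and 19.3 CPM in PAX6-TBR2-. Olig1 and Pdgfra, markers of oligodendrocyte precursors, had no count over the PAX6+ libraries and 26 and 31 counts over the PAX6-TBR2- libraries, at least 9.91-fold and 11.8-fold lower in PAX6+ against a floor of 3 counts over the group.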
